A study of Mus musculus with 26 samples.

Results

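The Ifi200 genes are a cluster of interferon-inducible genes on mouse chromosome 1. Ifi202b, Ifi203, Ifi204, Ifi205 and Mndal, 5 of the 16426 genes in the single-cell count tables and of the 17623 genes in the bulk tables, were chosen by their symbol from the levels they had shown in these data: their UMI counts per cluster in the 2 strain libraries and their group mean FPKM in 2 bulk comparisons. All values of those measures are therefore given as a description, with no test.

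Most Ifi200 proteins join a pyrin domain, which binds other pyrin proteins, to a HIN domain, which binds double-stranded DNA. Members of the family sense DNA in the nucleus or cytosol, control transcription and tune the AIM2 inflammasome. Their genes are switched on by interferon, and macrophages and dendritic cells are known sources of them. In the choroid, the vascular layer that feeds the outer retina, such cells lie among the endothelial cells (ECs), stromal cells and melanocytes beneath the retinal pigment epithelium (RPE).

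The single-cell RNAseq (scRNAseq) data came from RPE/choroid of 3 month-old mice of the strains B6129PF1/J, a first-generation hybrid with C57BL/6J as a parent, and C57BL/6J, with 1 library per strain that pooled an eye of a male and an eye of a female. Bulk RNAseq of RPE/choroid tissue compared 3 Ihh+/+ with 3 Ihh-deleted (Ihh iΔEC/iΔEC) mice of C57BL/6J background, 6 month-old, all of which carried the tamoxifen-inducible Cre under the endothelial Cdh5 promoter and received tamoxifen 12 weeks before tissue collection. Indian hedgehog (Ihh) is a secreted ligand that choroidal ECs give to neighbouring stromal cells, and Gli1 is a transcriptional target of that signal. Bulk RNAseq of cultured choroidal GLI1+ cells (Gli1GFP/+, labelled SWR/J) compared 3 samples given the Smoothened agonist SAG at 100 nM for 24 h with 3 given the vehicle DMSO, all starved of serum beforehand. These cells came from a pool of sorted cells expanded as a single culture, so the 3 samples per treatment share their founder cells. Per the paper, the Gli1GFP/+ line was made in SWR/J and then outcrossed to BALB/c. The single libraries per strain allowed no test between strains, and the bulk tables used here hold the authors' group means, so no spread between libraries is given and no test was run for any comparison below.

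The B6129PF1/J library held 3637 cells and 17168578 UMIs and the C57BL/6J library 3928 cells and 15230413 UMIs, with medians of 3881 and 3175 UMIs per cell, and 22 cell barcodes occurred in both. The labels of the 13 clusters fitted their markers: the summed hematopoietic markers (Ptprc, Cd52, Laptm5) reached 31.8 and 33.8 UMIs per 10000 in cluster 11 of B6129PF1/J and C57BL/6J and at most 0.153 and 0.0907 elsewhere. Levels below are UMIs of a gene per 10000 UMIs of the same cells, with exact Poisson 95% intervals that cover counting error only.

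The 5 genes lie on the minus strand of chromosome 1 within 284518 bases (GRCm38, GENCODE vM21). Ifi204 is at chr1:173747293-173766943, Mndal at chr1:173849126-173942491, Ifi203 at chr1:173920407-173942672, Ifi202b at chr1:173962568-173982744 and Ifi205 at chr1:174011998-174031810. The annotated span of Mndal covers 99.2% of Ifi203 and all of Ifi211 (listed in the files under its older symbol Mnda) on the same strand, and family members share stretches of sequence. In the last 500 bases of the longest coding transcript, where 3′ tags fall, 58.1% of the 98-base words of Ifi205 also occurred in another family transcript, chiefly Ifi211, against 6.7% for Mndal and 0 for Ifi202b, Ifi203 and Ifi204. Pyhin1 (Ifi209) shared 57.8% of its words, with Ifi214, so counts of Ifi205, Ifi211 and Pyhin1 are the least certain of the family. Over whole transcripts and 50-base words, the shared part was 49.6% for Ifi205, 29.7% for Ifi204, 26.4% for Mndal, 5.86% for Ifi203 and 0 for Ifi202b.

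RefSeq promoter windows (GRCm38.p6, 250 bases before to 50 after a start) were found for 4 of the 5 genes. They were searched on both strands for the core of the interferon-stimulated response element, GAAANNGAA, which interferon-activated transcription factors bind. The core occurred in 8.56% of all 32851 windows and in 10 of the 14 windows of 12 family genes. A similar short element recurred at the starts of Mndal, Ifi203 and Ifi205, and of Ifi206, Ifi207, Ifi208, Ifi211, Ifi213 and Ifi214 among the wider family. In Ifi206, Ifi208 and Ifi213, the core and all but the last base after it were the same as in Mndal and Ifi203. The stretches of these genes and of Ifi214 are not printed. Those below, on the gene's strand with the matching letters in capitals, are from Mndal, Ifi203, Ifi205, Ifi207 and Ifi211.
Mndal, chr1:173880204-173880233: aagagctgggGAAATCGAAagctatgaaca
Ifi203, chr1:173942508-173942537: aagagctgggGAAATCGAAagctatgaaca
Ifi205, chr1:174031870-174031899: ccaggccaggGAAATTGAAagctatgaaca
Ifi207, chr1:173741831-173741860: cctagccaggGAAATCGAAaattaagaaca
Ifi211, chr1:173913064-173913093: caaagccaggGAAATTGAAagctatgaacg
The Mndal and Ifi203 stretches were identical, and their windows shared an unbroken run of 139 bases. The core began 36 bases before the RefSeq start in Mndal, 35 before that in Ifi203 and 134 before that in Ifi205. Both Mndal windows, chr1:173880138-173880437 and chr1:173879909-173880208, lie inside its GENCODE span, away from the GENCODE start at chr1:173942491. Core positions in Mndal therefore refer to its RefSeq starts only. A second Ifi203 window held no core, a second Mndal window held a core on the other strand 53 bases before its start, and Ifi205 held another 24 bases after its start. The Ifi202b window held no such core. It held a gamma-activated site core, TTCNNNGAA, which reads the same on both strands and occurred in 8.3% of all windows and in no other family window.
Ifi202b, chr1:173982973-173983002: ctgtcatgatTTCTCAGAAtaactactgag
These are reference sequences, not those of the animals studied, and a match is a description of letters only.

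Ifi203 and Mndal were the abundant members, and both were carried by ECs and hematopoietic cells. Ifi203 had 1037 UMIs in B6129PF1/J and 879 in C57BL/6J, or 0.604 (0.568 to 0.642) and 0.577 (0.54 to 0.617) per 10000. ECs (clusters 2 to 4) supplied 85.1% and 78.0% of these UMIs. In clusters 2, 3 and 4 the Ifi203 level was 1.80, 1.95 and 2.11 in B6129PF1/J and 1.37, 1.43 and 1.57 in C57BL/6J. The hematopoietic cluster followed at 1.37 (1.08 to 1.72) and 0.94 (0.712 to 1.22), and the intervals of the 3 EC clusters overlapped within each library.

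Mndal had 855 UMIs in B6129PF1/J and 1046 in C57BL/6J, or 0.498 (0.465 to 0.533) and 0.687 (0.646 to 0.73) per 10000. In B6129PF1/J its level was highest in hematopoietic cells, at 2.17 (1.80 to 2.60), followed by EC clusters 2, 3 and 4 at 1.43, 1.43 and 1.34. In C57BL/6J the hematopoietic level of 1.70 (1.39 to 2.06) lay among the EC levels of 1.63, 1.57 and 2.06. The intervals of the hematopoietic cluster and of EC clusters 2 and 3 did not overlap in B6129PF1/J, whereas in C57BL/6J these levels differed by less than the counting error.

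At least 1 UMI of Mndal or Ifi203 was found in 69.4% of the 863 ECs of B6129PF1/J and 63.7% of the 1024 ECs of C57BL/6J, and in 75.5% of 106 and 57.5% of 127 hematopoietic cells. In RPE cells, which are assumed here, without a check, to lack them, Ifi203 was seen in 0.983% of 407 cells and 0.802% of 374. The medians were 5263 and 3407 UMIs per RPE cell, against 4153 and 3420 in ECs. After each cell was thinned to 1700 UMIs, Ifi203 was seen in 28.9% and 19.5% of ECs and 0.246% and 0.535% of RPE cells. The RPE, Schwann cell and melanocyte clusters held at most 4 UMIs of any member each, which in RPE is read here as background. In small clusters so few UMIs do not show a low level. Ifi203, with 2 UMIs each, was at 0.186 (0.0225 to 0.672) in Schwann cell cluster 13 of B6129PF1/J and 0.193 (0.0233 to 0.696) in melanocyte cluster 10 of C57BL/6J. Ifi203 and Mndal also appeared, at a lower level than in ECs, in stromal cluster 6 and smooth muscle cluster 9, described below.

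Ifi204, a DNA sensor of myeloid cells, was rarer, with 80 UMIs in B6129PF1/J and 129 in C57BL/6J. Its level was highest in the hematopoietic cluster, at 0.621 (0.43 to 0.868) and 1.17 (0.914 to 1.48), where 24.5% and 30.7% of cells held a UMI. ECs held Ifi204 at 0.0775 (0.0543 to 0.107) and 0.0721 (0.0503 to 0.1), and RPE cells at 0 UMIs in both libraries, which allows up to 0.0123 and 0.0211 per 10000 by the Poisson interval. In stromal cluster 7 the level was 0.0824 (0.0331 to 0.17) and 0.221 (0.118 to 0.378).

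Ifi205 was nearly limited to hematopoietic cells in these libraries. Of its 25 UMIs in B6129PF1/J, 22 were in cluster 11 and 3 in stromal cluster 7. Of its 43 UMIs in C57BL/6J, 33 were in cluster 11, 8 in cluster 7 and 1 each in clusters 2 and 9. The level in cluster 11 was 0.402 (0.252 to 0.609) and 0.544 (0.375 to 0.764), but the UMIs sat in 15 of 106 and 13 of 127 cells.

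Ifi202b, the member without a pyrin domain that is known to restrain AIM2, differed from the rest by strain. It had 37 UMIs in 33 cells of B6129PF1/J and 0 UMIs in the 3928 cells of C57BL/6J, which allows up to 0.00242 per 10000 by the Poisson interval. Cluster 11 held 20 of the 37 UMIs (0.365 per 10000, 0.223 to 0.564), EC cluster 2 held 9, EC clusters 3 and 4 held 3 and 1, and stromal cluster 7 held 4. The remaining 8 clusters held none.

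**Figure D1:**
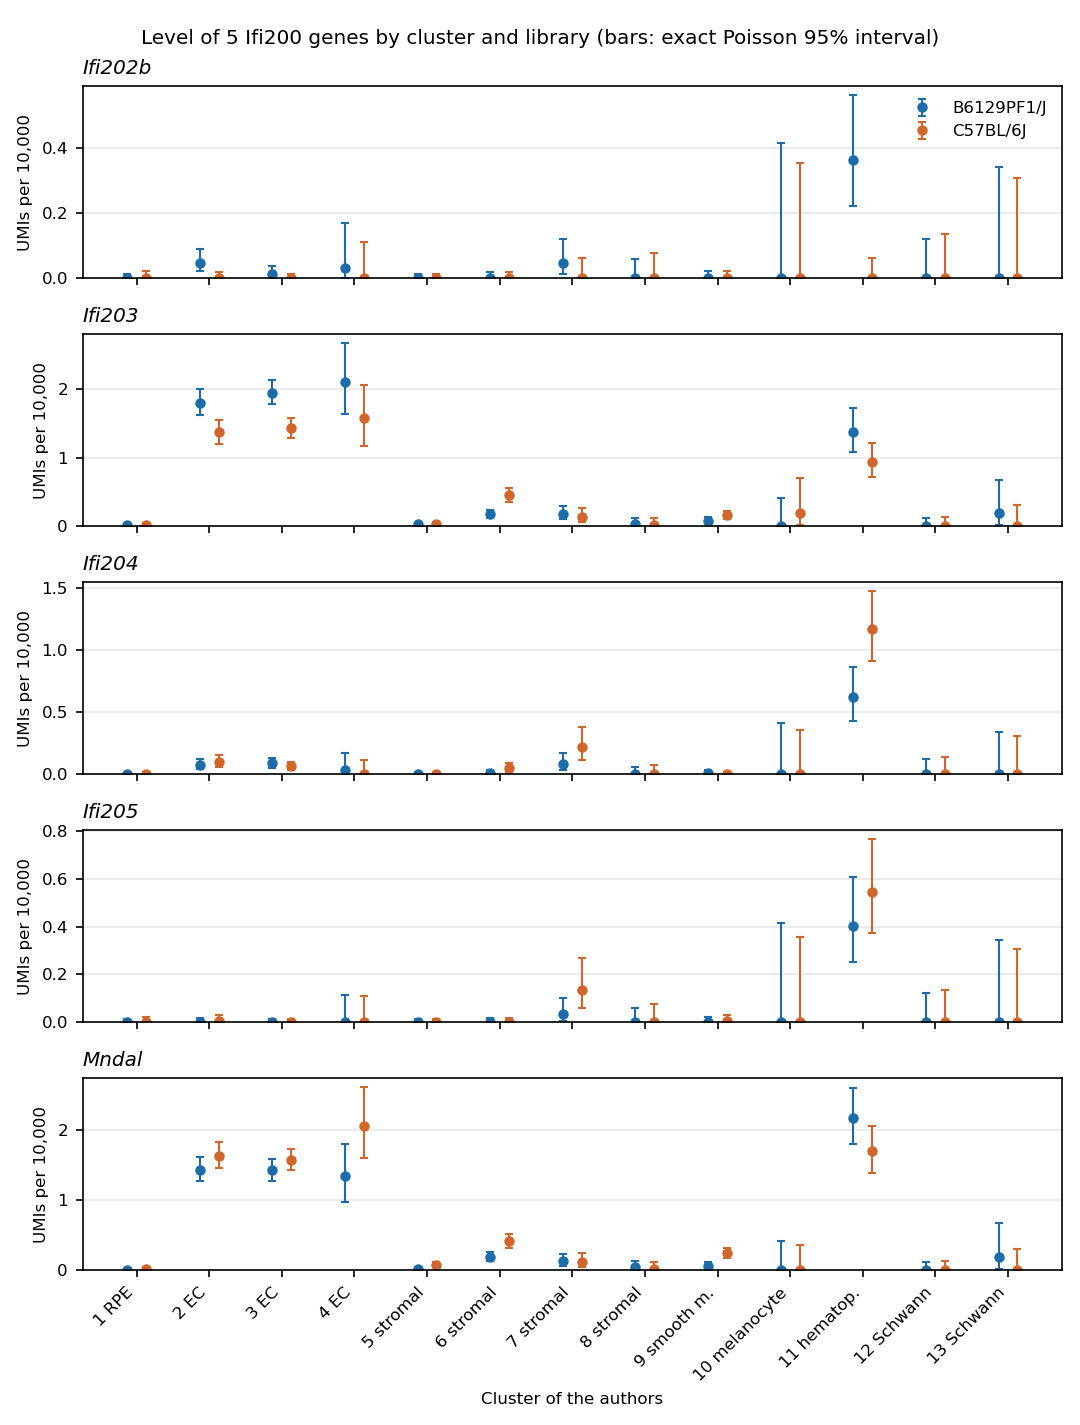
Level of each Ifi200 gene (UMIs per 10000, y axes differ) in the 13 clusters of the B6129PF1/J and C57BL/6J libraries, with exact Poisson 95% intervals. Ifi203 and Mndal stand highest in EC clusters 2 to 4 and hematopoietic cluster 11, Ifi204 and Ifi205 in cluster 11, and Ifi202b is at 0 in every C57BL/6J cluster; the long bars of clusters 10, 12 and 13 reflect their few UMIs.

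Across the 13 clusters the 5 genes fell into 2 overlapping patterns. The profile of Ifi203 (log2 of UMIs per 10000 plus 0.1) correlated with that of Mndal at a Pearson r of 0.986 in the B6129PF1/J library and 0.956 in the other. Among genes with at least 100 UMIs, Mndal had the profile most like that of Ifi203, followed by the EC transcription factor gene Hhex (0.942 and 0.870) and Ctla2b (0.938 and 0.899). Next to Ifi203, the genes most like Mndal were Aftph (0.94, but 0.402 in C57BL/6J) and Tm6sf1 (0.939 and 0.816).

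Ifi204 and Ifi205 correlated at 0.921 and 0.954, and each with Ifi203 at 0.634 and 0.342 in B6129PF1/J. With Mndal their r in that library was 0.730 and 0.473. Ifi202b, seen in B6129PF1/J only, correlated at 0.970 with Ifi204, 0.958 with Ifi205, 0.660 with Mndal and 0.554 with Ifi203. The genes closest to Ifi204 were Cd36, Cd37 and Cd14 (r of 0.936, 0.933 and 0.931, and 0.766, 0.856 and 0.904 in C57BL/6J). Those closest to Ifi205 were Wfdc17, Plek and Bcl2a1b (0.992, 0.992 and 0.991, and 0.897, 0.891 and 0.898). Those closest to Ifi202b were Cd14, Alox5ap and Bcl2a1b (0.956, 0.955 and 0.953). Cd14 is a myeloid receptor for bacterial lipopolysaccharide, and Alox5ap serves leukotriene synthesis in leukocytes. The clusters of a library come from the same animals and library and differ in depth. These r values are therefore only a description of profile shape over 13 points. In B6129PF1/J, levels outside the hematopoietic cluster were at most 0.0472 for Ifi202b, 0.0870 for Ifi204 and 0.0353 for Ifi205. All lay below the 0.1 added before the log, against 0.365, 0.621 and 0.402 in that cluster. The r values among these genes, and the choice of their closest genes, therefore rest mainly on that cluster. They say little about the other clusters.

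To see which hematopoietic cells held which member, the 233 cells of cluster 11 were grouped again over both libraries without any family gene, which gave 9 groups named here by their leading genes. Ifi205 was concentrated in group 4, led by Xcr1, Naaa and Irf8, with 19 UMIs in 12 of 16 cells of B6129PF1/J and 29 UMIs in 9 of 13 cells of C57BL/6J. Its level there was 1.55 (0.933 to 2.42) and 2.79 (1.87 to 4.0) per 10000. Xcr1 encodes the chemokine receptor of cross-presenting dendritic cells, and Irf8 a factor required for them. Group 1 held 5 further UMIs and group 5 held 2, and the other 6 groups held none. Group 4 had the deepest cells of cluster 11, with a median of 7725 UMIs.

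Ifi204 followed another set of cells. Its level was 1.44 (0.958 to 2.08) in group 1, led by Lyz1, Chil3 and Ly6c2, 1.33 (0.815 to 2.06) in group 2, led by Folr2, Lyve1 and Cd163, and 2.17 (1.43 to 3.15) in group 3, led by the protease genes Mcpt4, Cpa3 and Tpsb2. The proteases of group 3 are mast cell genes, whose summed markers were near 0 in cluster 11 of B6129PF1/J (0.0914), so these genes marked the group chiefly in C57BL/6J, and its Ifi204 level was 1.22 (0.526 to 2.4) in B6129PF1/J and 3.22 (1.94 to 5.03) in C57BL/6J. In group 4 the Ifi204 level was 0.309 (0.124 to 0.636), with all 7 UMIs in B6129PF1/J. Group 7, led by the T cell receptor genes Cd3g, Cd3d and Cd3e, and group 9, led by the B cell gene Cd79a, held no UMI of Ifi202b, Ifi204, Ifi205, Mnda or AI607873 (Ifi207). Mndal was present in both, at 2.94 (1.71 to 4.70) and 4.97 (2.00 to 10.2), and Ifi203 at 2.25 (1.2 to 3.84) and 2.13 (0.439 to 6.22).

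The 20 hematopoietic UMIs of Ifi202b in B6129PF1/J were spread over groups 1 to 6 and 8, with 1 to 5 UMIs in each. Groups 6 and 8 were led by stromal and endothelial genes (Apod and Col3a1, Kdr and Cldn5), and doublets were not removed. Pyhin1 had UMIs in all 9 groups, and AI607873 was highest in group 3, at 3.05 (2.16 to 4.18).

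**Figure D2:**
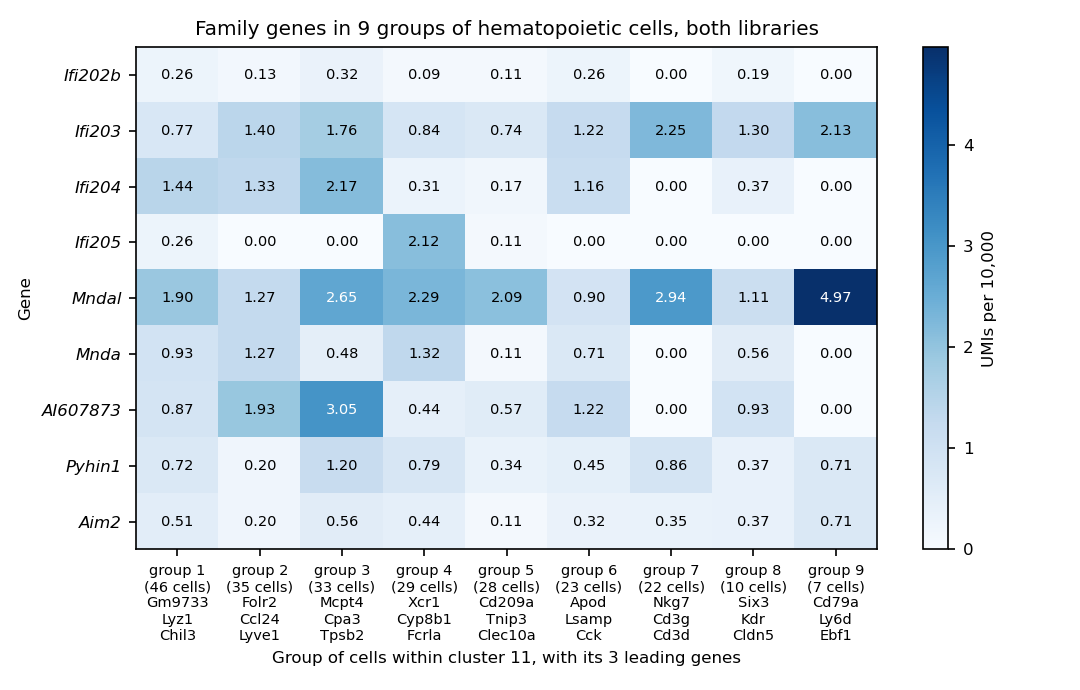
Level (UMIs per 10000, colour and printed value) of 9 family genes in the 9 groups of cells within hematopoietic cluster 11, both libraries summed, with cell numbers and 3 leading genes per group. Ifi205 stands at 2.12 in group 4 and at most 0.257 elsewhere, whereas Mndal is present in every group and Ifi204 is at 0 in groups 7 and 9. Group 9 has 7 cells, and its 0 for Ifi204 allows up to 2.62.

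A few cells of stromal cluster 7 held the members otherwise found in hematopoietic cells. At least 1 UMI of Ifi202b, Ifi204, Ifi205, Mnda or AI607873 was found in 12 of 185 cells of B6129PF1/J (33 UMIs) and 10 of 158 cells of C57BL/6J (29 UMIs), with up to 8 and 10 UMIs in a single cell. All 3 cells with Ifi205 in B6129PF1/J and 3 of the 4 in C57BL/6J also held another of these genes. None of the 12 and 2 of the 10 cells held a UMI of Ptprc, Cd52 or Laptm5, against 1.08% and 2.53% of all cells of the cluster. These cells were chosen from the genes in question, so what else they held is described without a test. Pi16 was at 89.5 per 10000 in them and 9.63 in the other cells of the cluster. Dpt was found in 8 of the 12 and 8 of the 10 cells, against 9 of 173 and 6 of 148 others, Clec3b in 12 and 9 against 32 and 14, and Ly6c1 in 11 and 8 against 16 and 11. Pi16, Dpt and Clec3b are genes of adventitial fibroblasts. None of the 22 cells held a UMI of Gli1, against 25 of 173 and 19 of 148 others, and with so few cells nothing is read from that 0. Ptch1 was at 0.415 per 10000 in these cells, with 5 UMIs, and 0.653 in the others.

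Between the strain libraries, 1 of the 5 members was at least 2-fold higher in B6129PF1/J and 0 were at least 2-fold lower, where 2.26% and 1.88% of the 14082 genes with at least 20 UMIs were called in these directions. The called member was Ifi202b, whose level was 10.9-fold higher with the C57BL/6J library taken at 3 counts and at least 8.46-fold higher by the exact lower 95% limit of the ratio. It was among 21 genes with at least 20 UMIs in B6129PF1/J and none in C57BL/6J, which also included Gbp2b and Ifi44l, a pair of interferon-inducible genes. Its UMIs came from cells of both sexes: cells with Xist and no Y-linked UMI held 18 UMIs of Ifi202b and cells with Y-linked UMIs and no Xist held 7, against 0 and 0 in C57BL/6J. Each library comes from a single pair of mice, so strain and library cannot be told apart.

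Ifi204 and Ifi205 stood just within the 2-fold limit, lower in B6129PF1/J. Ifi204 was at 0.0466 (0.037 to 0.058) in B6129PF1/J and 0.0847 (0.0707 to 0.101) in C57BL/6J, a ratio of 0.55 (0.411 to 0.733). Its ratio was 0.57 in the cells of the females and 0.486 in those of the males. Ifi205 was at 0.0146 (0.00942 to 0.0215) and 0.0282 (0.0204 to 0.038), a ratio of 0.516 (0.302 to 0.864), and 0.739 (0.41 to 1.31) within cluster 11.

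Mndal was at a ratio of 0.725 (0.662 to 0.795), with 0.664 in female and 0.64 in male cells, and Ifi203 at 1.05 (0.956 to 1.15), with 1.01 and 0.937. The balance of this overlapping pair therefore shifted. There were 0.825 (0.752 to 0.904) Mndal UMIs per Ifi203 UMI in B6129PF1/J and 1.19 (1.09 to 1.30) in C57BL/6J. In ECs the balance was 0.749 (0.677 to 0.83) and 1.15 (1.04 to 1.28), in cells of the females 0.797 and 1.21, and in cells of the males 0.76 and 1.11. In hematopoietic cells it was 1.59 (1.18 to 2.15) and 1.81 (1.30 to 2.54), with overlapping intervals. The reference genome is that of C57BL/6J, and the part of strain differences in sequence in these counts was not tested.

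The strain ratio of Ifi203 lay above 1 in some clusters and below 1 in others, and that of Mndal varied in size. In ECs, Ifi203 was 1.34-fold (1.21 to 1.49) higher in B6129PF1/J and Mndal at a ratio of 0.874 (0.787 to 0.97). In stromal cluster 6, Ifi203 was at 0.171 (0.119 to 0.238) in B6129PF1/J and 0.447 (0.357 to 0.553) in C57BL/6J, and Mndal at 0.186 (0.132 to 0.255) and 0.41 (0.324 to 0.512), ratios of 0.383 (0.251 to 0.574) and 0.453 (0.299 to 0.676). In smooth muscle cluster 9 the ratios were 0.505 (0.246 to 0.992) and 0.282 (0.135 to 0.544). The summed EC markers (Cdh5, Pecam1, Cldn5, Flt1) moved with them, from 1.18 in C57BL/6J to 0.367 in B6129PF1/J in cluster 6 and from 0.658 to 0.378 in cluster 9. The 5 members together had 0.0743 and 0.0671 UMIs per EC marker UMI in ECs of B6129PF1/J and C57BL/6J, 1.00 and 0.764 in cluster 6, and 0.403 and 0.610 in cluster 9. The part of EC RNA in the levels of clusters 6 and 9 was not tested.

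Over single clusters, 20 of the 65 pairs of a member and a cluster reached 20 UMIs. Of these, 1 was at least 2-fold higher in B6129PF1/J, where 2.7% of all 88444 pairs of a gene and a cluster were called, and 5 were at least 2-fold lower, where 2.84% were. The pair that was higher was Ifi202b in cluster 11, 7.39-fold with C57BL/6J at 3 counts and at least 5.47-fold by the exact lower limit. This call was lost after thinning and without the cells that held both Xist and Y-linked UMIs. The 5 that were lower were Mndal in clusters 5, 6 and 9, Ifi203 in cluster 6 and Ifi204 in cluster 7, where the ratio was 0.373 (0.126 to 1.01). In cluster 11, Ifi203 was at a ratio of 1.46 (1.02 to 2.1), Mndal at 1.28 (0.975 to 1.68) and Ifi204 at 0.531 (0.342 to 0.809). The makeup of cluster 11 differed as well. The summed mast cell markers were at 28.1 per 10000 in C57BL/6J and 0.0914 in B6129PF1/J, the macrophage markers at 163 and 117, and the dendritic markers at 72.4 and 122. The part of this makeup in the ratios was not tested.

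**Figure D3:**
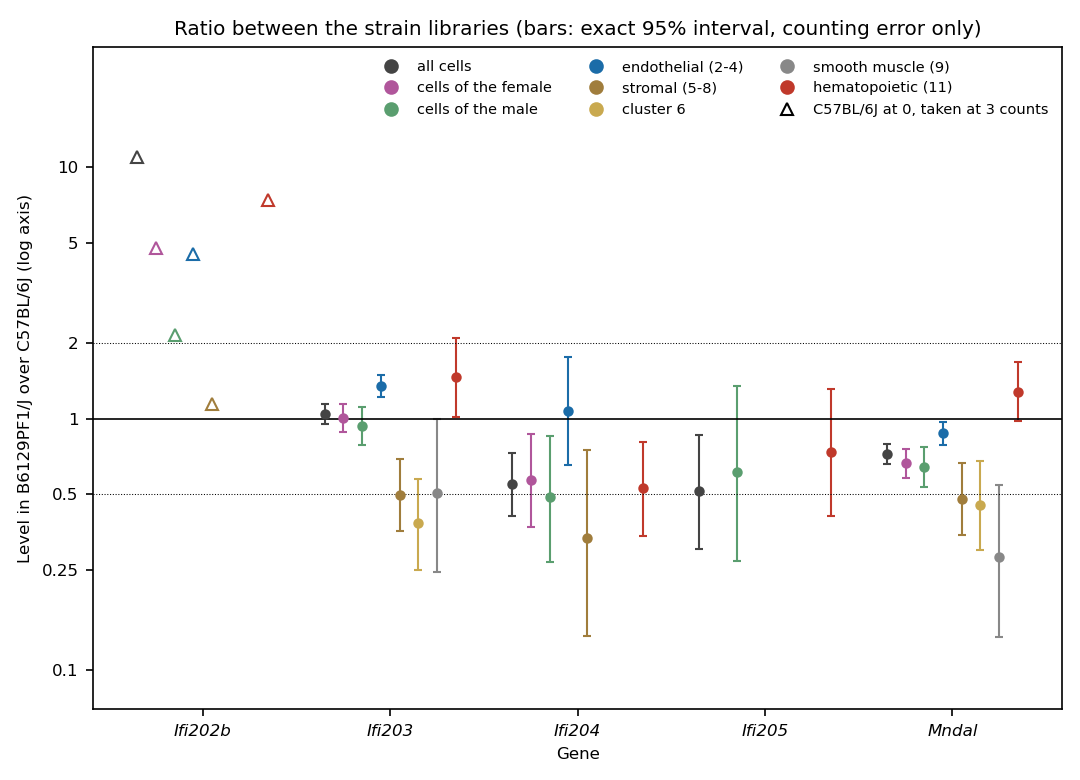
Ratio of each gene's level in B6129PF1/J to that in C57BL/6J (log axis) over all cells, cells of each sex, and cell classes, for genes with at least 20 UMIs in that scope, with exact 95% intervals for counting error; triangles are ratios of Ifi202b with C57BL/6J taken at 3 counts, drawn also below 20 UMIs and without the counting error of B6129PF1/J. The triangle of stromal cells, from 4 UMIs, has an exact lower limit of 0.565, and Ifi203 lies above 1 in endothelial and hematopoietic cells and below 1 in stromal cells.

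Of the wider family, Aim2, the inflammasome DNA sensor, had 11 UMIs in the hybrid library against 46, a ratio of 0.212 (0.0991 to 0.416), and Pyhin1 had 25 and 47, a ratio of 0.472 (0.278 to 0.782). Mnda had 71 and 112 UMIs, a ratio of 0.562 (0.412 to 0.764), and AI607873 had 68 and 77, a ratio of 0.783 (0.557 to 1.10). Over all cells, every named family gene other than Ifi202b and Ifi203 was thus at a lower level in B6129PF1/J, with an interval that reaches past 1 for AI607873. Within cluster 11 the ratios were 0.222 (0.0831 to 0.506) for Aim2, 0.566 (0.331 to 0.944) for Pyhin1, 0.563 (0.35 to 0.889) for Mnda and 0.918 (0.637 to 1.32) for AI607873. Mndal was there at 1.28 (0.975 to 1.68). The part of the share of cluster 11 in each library in the ratios over all cells was not tested. The cell adhesion gene Cadm3 and the actin-binding formin gene Fmn2, coding genes within 500 kb of the members that reached 20 UMIs, had 76 and 63 and 29 and 18 UMIs, ratios of 1.07 (0.756 to 1.52) and 1.43 (0.767 to 2.73).

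Interferon-stimulated genes stood lower in B6129PF1/J too. Of 40 listed genes with at least 20 UMIs, 10 were at least 2-fold lower and 1 was at least 2-fold higher. Of all 14082 genes, 1.88% were lower and 2.26% higher by this limit. The median ratio of the list was 0.626 against 0.973 over all genes. Zbp1, a sensor of Z-form nucleic acid, had 36 and 135 UMIs, Oas1a 8 and 30, and Ifit1 604 and 1450, ratios of 0.237, 0.237 and 0.37. Ifi44l had 21 and 0 UMIs, and Ifit2 and Ifitm1 were at ratios of 1.02 and 0.951. The summed level of the list was 44.0 in B6129PF1/J and 61.0 in C57BL/6J, 47.8 and 64.3 in cells of the females, and 40.1 and 59.2 in cells of the males. Of 15 interferon signalling genes, 0 passed 2-fold in either direction (median ratio 0.817), with Irf7 at 0.572 and Socs1 at 0.659 among the lowest and Jak2 at 1.15, Socs3 at 1.10 and Ifnar1 at 1.06 the highest. Of 12 DNA sensing and inflammasome genes 0 passed (median ratio 0.877), with Casp1 at 0.619, Casp4 at 0.705 and Mb21d1 at 0.732 the lowest and Ikbke at 1.94, Nlrp3 at 1.77 and Il1b at 1.74 the highest.

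In RPE/choroid tissue, the authors' mean FPKM of Ihh was 1.53 in Ihh+/+ and 0.454 in Ihh-deleted mice, and that of Gli1 was 9.40 and 3.15. Among the 5 members, 0 of the 3 that reached 1 FPKM passed 2-fold in either direction, where 1.1% of 11411 genes were at least 2-fold higher after deletion and 0.745% at least 2-fold lower. Mndal was at a mean of 2.51 FPKM in Ihh+/+ and 2.33 after deletion, Ifi203 at 1.74 and 1.39, and Ifi204 at 1.24 and 1.49. Ifi205 was at 0.56 and 0.454, below 1 FPKM in both. In bulk tissue, fewer cells of a type and less RNA per cell cannot be told apart.

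Ifi202b was again the exception, at a mean of 0.021 FPKM in Ihh+/+ and 0.723 FPKM after deletion. Both means were under 1 FPKM, so it was not called, and group means do not show whether 1, 2 or all 3 libraries carried it. The paper, by its own adjusted p-values, lists Ifi202b among the genes higher after deletion and lower with SAG. The mice of both groups were labelled C57BL/6J, the strain whose scRNAseq library held no UMI of the gene. Ihh lies on the same chromosome, 98.8 Mb away. The mean of Xist was 6.18 in Ihh+/+ and 13.6 after deletion, and the summed hematopoietic markers were at 47.7 and 49.9 FPKM. The macrophage markers summed to 729 in Ihh+/+ and 930 after deletion, the stromal markers to 562 and 372, and the mast cell markers to 9.90 and 5.10, with 3 of 5 at least 2-fold lower. The part of genetic background, of the sex of the animals or of these cell types in the Ifi202b means was not tested.

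Nearly all listed interferon genes lay within 2-fold in this comparison, where 1.1% of all 11411 genes were at least 2-fold higher and 0.745% lower. Of 35 interferon-stimulated genes 0 passed 2-fold (median ratio 0.922 against 0.975 over all genes), with Ifitm1, Isg15 and Lgals3bp at 1.2, 1.16 and 1.1 and Ifi27l2a, Iigp1 and Dhx58 at 0.727, 0.732 and 0.754. Of 15 signalling genes, Socs3 alone passed, at 16.2 FPKM in Ihh+/+ and 4.81 after deletion, with Socs1 at a ratio of 0.667 and Tyk2 at 0.877, and Irf3, Irf9 and Jak2 the highest at 0.955, 0.95 and 0.943. Of 8 DNA sensing genes 0 passed, from Il18 at 1.21, Casp1 at 1.10 and Samhd1 at 1.02 to Ikbke at 0.972, Trex1 at 0.876 and Tmem173 at 0.679. Of the wider family, AI607873 was at 1.45 and 1.36 FPKM.

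In cultured GLI1+ cells all 5 members were lower with SAG. The mean of Ifi204 was 5.74 FPKM with DMSO and 1.39 with SAG, that of Ifi202b 3.29 and 1.00, and that of Ifi205 2.33 and 0.484. The mean of Ifi203 was 1.99 and 0.301, and that of Mndal 1.84 and 0.458. These are 4.14-, 3.28-, 4.81-, 6.60- and 4.02-fold lower means, so that 5 of 5 members were at least 2-fold lower and 0 higher, where 1.18% of 10325 genes were at least 2-fold lower and 0.387% higher. These contrasts were among the values from which the members were chosen, so nothing is read from the count. The pathway's targets had higher means with SAG: Gli1 was at 0.028 FPKM with DMSO and 3.65 with SAG, and Ptch1 at 1.13 and 10.1.

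The levels in culture differed in order from those in tissue. Per length, Ifi204 and Ifi202b were the highest members with DMSO, at 5.74 and 3.29 FPKM, while Mndal at 2.51 and Ifi203 at 1.74 were the highest in Ihh+/+ tissue. Culture and tissue also differed in strain label (SWR/J and C57BL/6J), and expanded GLI1+ cells are set here against whole tissue. The part of either in the order was not tested. The summed hematopoietic markers were at 0.0717 FPKM with DMSO and 0.119 with SAG, the macrophage markers at 2.27 and 2.93, and the T cell markers at 0 in both, so leukocyte marker RNA was near 0 in both groups or, for the macrophage list, summed to no more than 2.93 FPKM over 5 genes. The stromal markers were at 2472 and 2246 FPKM. Mnda was at 5.75 FPKM with DMSO and 1.35 with SAG, nearly the means of Ifi204, with which it shares sequence. AI607873 was at 0.318 and 0.028, and Aim2, Pyhin1, Pydc3 and Pydc4 were below 0.02 FPKM in both.

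**Figure D4:**
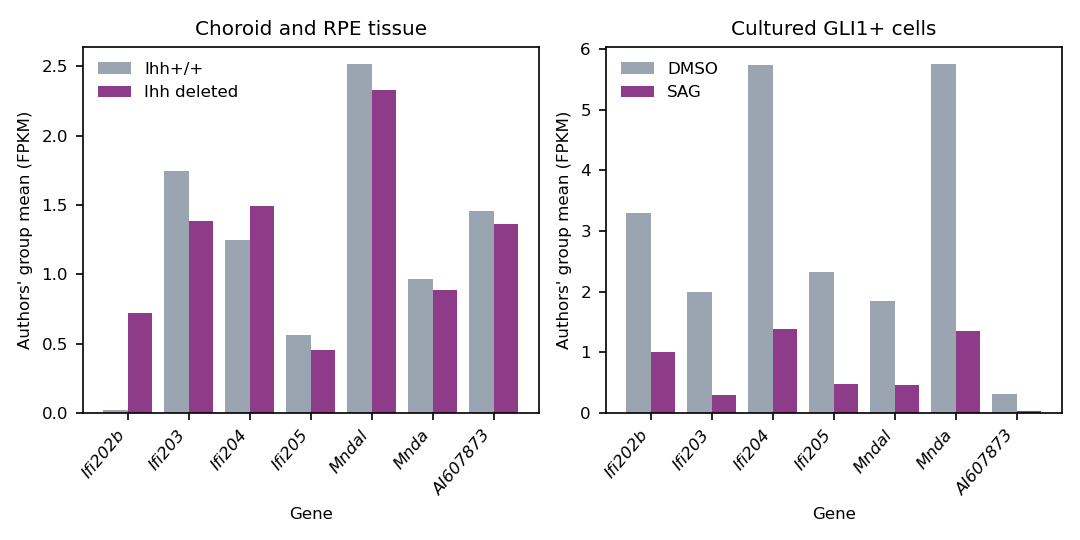
The authors' group mean FPKM of the 5 members, Mnda and AI607873 in RPE/choroid tissue of Ihh+/+ and Ihh-deleted mice (left) and in GLI1+ cells with DMSO or SAG (right); no spread between libraries is available. In tissue only Ifi202b stands apart between groups, at 0.021 and 0.723, whereas in culture every gene shown has the lower mean with SAG.

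Interferon-stimulated genes were lower with SAG as well. Of 38 listed genes that reached 1 FPKM, 35 were at least 2-fold lower and 0 were higher, where 1.18% and 0.387% of all 10325 genes were. The median ratio of the list was 0.229 against 1.04 over all genes. Mx1, an antiviral GTPase, was at 3.82 FPKM with DMSO and 0.01 with SAG, Rsad2 at 1.32 and 0.027, and Ifit3 at 18.4 and 1.01. The highest ratios were those of Ifitm1, Ifi27 and Ifitm2, at 1.19, 1.14 and 0.841. The median ratio of the 5 members and that of the list are drawn beside each other in the plot of log2 ratios by list.

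Of 15 interferon signalling genes, 4 were at least 2-fold lower and 0 higher, where 1.18% and 0.387% of all 10325 genes were. Irf7, the inducible driver of the interferon response, was at 30.9 FPKM with DMSO and 5.02 with SAG, and Stat2 at 21.9 and 8.07. Ifngr2, Jak2 and Ifnar1 were at ratios of 1.09, 1.05 and 1.05. Of 5 DNA sensing genes that reached 1 FPKM, Trex1, a DNase, passed at 15.2 and 6.97 FPKM, with Samhd1 at a ratio of 0.733, Tmem173 at 0.88, Ikbke at 0.954 and Tbk1 at 1.03.

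**Figure D5:**
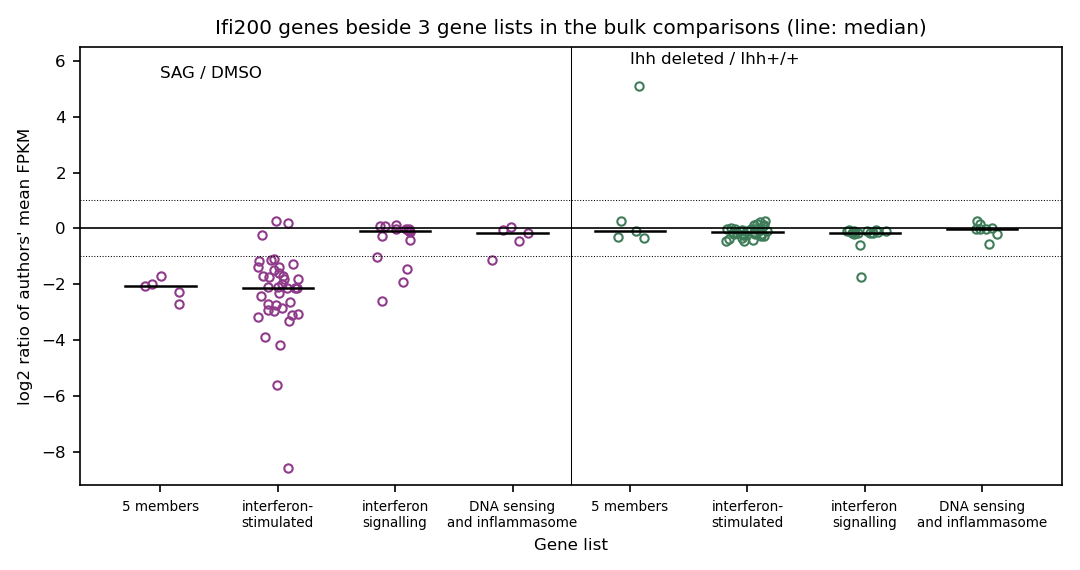
log2 ratio of the authors' group means for the 5 members (also those under 1 FPKM) and for the genes of 3 lists that reached 1 FPKM, SAG over DMSO on the left and Ihh-deleted over Ihh+/+ on the right, with the median as a line and 2-fold as dotted lines. With SAG the members and 35 of 38 interferon-stimulated genes lie below the lower dotted line, and after Ihh deletion Ifi202b lies alone at 5.11.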

How the data were processed

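Per the study's methods and labels, the authors counted UMIs per gene and cell with Cell Ranger on mm10, and deposited raw counts with a cluster number for each cell. For bulk RNAseq, STAR 2.4.0f1, Cufflinks 2.0.2, HTSeq and DESeq2 are named in the submitters' processing notes, and the deposited tables hold the authors' mean FPKM of each group, with no value per library. Their columns of fold changes and adjusted p-values, and the table of genes enriched in choroidal ECs, were not used.

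The members and gene lists were chosen with earlier results of these data known. Counts were summed per library, cluster or sex and divided by the summed UMIs of the same cells, with exact Poisson intervals for levels, exact conditional intervals for ratios and Clopper-Pearson intervals for shares of cells (95%, counting error only). A gene was called between strains at a 2-fold ratio with at least 20 UMIs over both libraries, a library at 0 being taken at 3 counts, and between bulk groups at a 2-fold ratio of means where the larger mean was 1 FPKM or more. Cells of cluster 11 were grouped with scanpy 1.11.5 (1500 variable genes, 12 components, 10 neighbours, resolution 0.6), and doublets were not removed. The calling step was tested on simulated counts. Named genes were the 5 members, wider family and neighbouring genes past the minimum, and the 3 highest and 3 lowest ratios of each list, of which 1 gene is not reported here; further genes, those of cluster 7 and Gbp2b among them, were chosen after their values were seen. Reads from near-identical family genes can be split or dropped by the counting, and reads that differ from the C57BL/6J reference can align less well; neither effect was tested.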

Additional observations from a re-analysis of the deposited data

Results flagged for a closer look

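The strain ratio of Ifi203 (B6129PF1/J over C57BL/6J) drew attention because its counting interval lay above 1 in some clusters and below 1 in others. It was 1.32 (1.11 to 1.55) in EC cluster 2, 1.37 (1.19 to 1.57) in EC cluster 3 and 1.46 (1.02 to 2.1) in hematopoietic cluster 11, but 0.383 (0.251 to 0.574) in stromal cluster 6 and 0.505 (0.246 to 0.992) in smooth muscle cluster 9. With 1 library per strain the difference between clusters was not tested. The summed EC markers were also lower in B6129PF1/J in clusters 6 and 9, as given above, and their part in the ratios was not tested.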

How the results depend on the processing

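No test was run in any comparison, so the alternatives concern counts and values. The 1 member past 2-fold between strains was 0 with a minimum of 100 UMIs, 0 in female cells only, where Ifi202b had 18 UMIs, and 3 at a fold of 1.5, which added Ifi204 and Ifi205. These 3 settings called 178 of 11517, 701 of 12891 and 1710 of 14082 genes. When cells were thinned to 1700 UMIs or only male cells were used the count was 1, but the member was Ifi204, since Ifi202b fell under 20 UMIs. Over all genes, 444 of 12720 were called after thinning and 603 of 11871 in male cells. The 6 pairs of a member and a cluster were 3 after thinning, which lost Ifi202b in cluster 11. They were 11 with a minimum of 1 UMI, 2 with a minimum of 100 UMIs and 3 at a fold of 3. Without cells that held both Xist and Y-linked UMIs they were 6, with Ifi203 in cluster 9 in place of Ifi202b in cluster 11. The share of all pairs called under these settings is not given, so nothing is read from the changes in the count of pairs. Among members past 2-fold between Ihh genotypes, the count of 0 was 1 without a minimum (Ifi202b), where 1327 of 16507 genes were called. For SAG the 5 were 4 with a pseudocount of 1 FPKM, where Mndal fell out and 105 of 10325 genes were called. Over all genes, 583 passed between strains (178 to 1710 over the alternatives), 211 between Ihh genotypes (106 to 1327) and 162 between SAG and DMSO (84 to 1121). The level of Ifi205 in cluster 11 was 0.167 and 0.232 after thinning, against 0.402 and 0.544. No paired analysis was possible because the bulk tables used hold group means only and the strains have 1 library each; for the same reason leaving out each replicate was not run.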

Other observations

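Of the 21 genes with at least 20 UMIs in the B6129PF1/J library and none in the C57BL/6J library, 18 were listed in the bulk tables. Of these, 5 reached 0.5 FPKM in an Ihh group, each of them in the Ihh-deleted group only. Ifi202b was at 0.021 in Ihh+/+ and 0.723 after deletion, St6galnac1 at 0.0287 and 0.727, and Ctse at 0.267 and 1.2, while 2610528A11Rik was at 0.241 and 0.506 and Cilp at 0.396 and 0.652. The limit was passed through the deleted group alone, so nothing is read from their shared direction. Among the genes under the limit, Kera was at 0.353 in Ihh+/+ and 0.232 after deletion, and Npw at 0.142 and 0.0823. In GLI1+ cells, Gbp2b was at 0.289 FPKM with DMSO and 0.007 with SAG, and Gm4841 at 0.537 and 0.042. These genes were picked for their strain pattern, and the means carry no spread.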
